A study of Mus musculus with 6 samples.

Results

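The constitutive proteasome genes of the mouse pancreas are described here in experimental acute pancreatitis (AP), with and without pretreatment by polyI:C, a synthetic mimic of viral RNA that binds Toll-like receptor 3. They were taken by name, as the protein-coding genes whose symbol starts with Psma, Psmb, Psmc, Psmd, Psme or Psmf followed by a number, leaving out the interferon-inducible catalytic subunits Psmb8, Psmb9 and Psmb10. This gave 43 genes of the 22556 listed. RNA-sequencing had been made of whole pancreas from wild type C57BL/6 mice at postnatal week 8, with 2 mice in each of 3 groups. The saline mice received saline. The AP mice received cerulein (caerulein), an analog of cholecystokinin that overstimulates acinar cells, at 200 µg/kg in 10 hourly injections by the study's methods. The mice called pretreated AP below received polyI:C at 10 mg/kg before the same cerulein course, and the pancreas was taken 24 h after the first cerulein injection. No group received polyI:C without cerulein in the data analysed here. Nothing in the labels says more of how the mice of a group were kept or handled, so p-values measure the spread between these mice.

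The proteasome is the cell's main protease for proteins tagged with ubiquitin. Its core is a barrel of stacked rings, with alpha subunits that gate the entrance and beta subunits that carry the catalytic sites, and its cap has a base of ATPases that unfold the substrate and a lid that removes the ubiquitin chain. Other activators can replace the cap, among them the ring made of the Psme1 and Psme2 proteins, which interferon-gamma induces together with Psmb8, Psmb9 and Psmb10. In acinar cells, which make large amounts of secreted enzymes, the proteasome also disposes of misfolded proteins exported from the endoplasmic reticulum.

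By structure, the 43 genes comprised 8 of the alpha ring (Psma1 to Psma8), 8 of the beta ring (Psmb1 to Psmb7 and Psmb11), 6 ATPases of the cap base (Psmc1 to Psmc6), 3 other base subunits (Psmd1, Psmd2 and Psmd4), 8 lid subunits (Psmd3, Psmd6, Psmd7, Psmd8, Psmd11, Psmd12, Psmd13 and Psmd14), 3 chaperones of cap assembly (Psmd5, Psmd9 and Psmd10), 5 activator genes (Psme1, Psme2, Psme2b, Psme3 and Psme4) and Psmf1, which encodes an inhibitor or regulator of the core. Psmc3ip was caught by its symbol alone. It encodes a protein of meiotic recombination and no proteasome subunit. Psma8 belongs to the testis and Psmb11 to the thymus, and both were barely detected. Psmb11 was at 0 TPM (transcript abundance per gene length, scaled to a fixed library total) in both saline mice and reached 0.220 TPM at most, so that 42 genes passed the filter of a mean of at least 1 TPM over the 6 mice and were tested.

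Promoter sequences from RefSeq (GRCm38.p6) matched 36 of the 43 genes. Psma8, Psmb1, Psmb2, Psmb7, Psmc3, Psmd3 and Psmd7 had no match. Windows from 250 bases before to 50 bases after each start were searched on both strands for the core of the antioxidant response element (TGACNNNGC), which the proteasome factors Nfe2l1 and Nfe2l2 bind, and for the core of the interferon-stimulated response element, which is GAAA and GAAA with any 2 bases between them. Shown are 80 bases of 2 catalytic subunits that hold the first element, then of 2 genes that hold the second, written in the direction of the gene, with the matched element in capitals.
Psmb5 (chr14:54617996-54618075, minus strand): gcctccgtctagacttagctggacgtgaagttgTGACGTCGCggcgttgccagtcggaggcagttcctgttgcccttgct
Psmb6 (chr11:70525277-70525356, plus strand): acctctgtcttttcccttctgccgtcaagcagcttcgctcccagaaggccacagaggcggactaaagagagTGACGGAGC
Psme1 (chr14:55578433-55578512, plus strand): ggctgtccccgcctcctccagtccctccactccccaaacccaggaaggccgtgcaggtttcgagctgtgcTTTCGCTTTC
Psmd4 (chr3:95042615-95042694, minus strand): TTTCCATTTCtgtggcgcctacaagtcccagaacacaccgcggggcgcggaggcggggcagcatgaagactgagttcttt
The Psmb5, Psmb6 and Psmd4 stretches end at the base before the start. The Psme1 stretch runs 19 bases past it, and its element lies on the opposite strand from base 10 after the start, as that of Psmd4 lies on the opposite strand from base -80.

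The antioxidant element was present in 6 of the 36 promoters (16.7%), those of Psmb5, Psmb6, Psmc6, Psmd9, Psmd12 and Psme4, against 14.0% of 27025 genes with a promoter in the table. The interferon element was present in 4 of 36 (11.1%), those of Psmb3, Psmd4, Psmd9 and Psme1, against 3.99% of genes. The CCAAT box, bound by NF-Y, was in 14 of 36 (38.9%) against 41.1% of genes, and TATAAA was in 3 of 36 (8.33%) against 15.7%. These are matches of letters in a window, described without a test, and they do not show binding. Matches to different motifs may overlap, and Psmd9 held both the antioxidant and the interferon core.

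The libraries were of unequal depth. The reads behind each table, estimated from the spacing of its low TPM values, were between 3296375 and 3959972 in the saline mice, between 6901565 and 8835266 in the AP mice and between 8819069 and 10826960 in the pretreated AP mice. The 15 genes that exceeded 1% of the transcripts in some mouse held 27.6% to 30.4% of the total in saline mice and 15.4% to 19.0% in the other 4 mice. TPM sum to a fixed total, and the median log2 fold change over all 16814 tested genes was 0.45 for AP over saline, 0.48 for pretreated AP over saline and 0.04 for pretreated AP over AP. The changes below are therefore also given after median-of-ratios scaling, which brought these medians to 0.04, 0.04 and 0.01.

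Among the pancreatic markers, 20 acinar genes were listed and only 8 of them had values. The rest, most of them digestive enzymes such as Cpa1, Prss2 and Pnlip, had no value in any mouse. They are therefore not part of the TPM total. The 8 acinar genes with values summed to 25438 to 31128 TPM in saline mice. Their sums were 10333 to 14102 TPM with AP and 9872 to 10489 TPM with AP after polyI:C. Klk1 alone made up between 88.0% and 96.4% of these sums. Without Klk1 the other 7 genes summed to 1528 to 1672 TPM, 477 to 511 TPM and 1163 to 1260 TPM in that order. Of the 8 genes, 5 fell in AP against saline mice, and in pretreated AP against AP mice 4 were raised, with a median log2 fold change of 0.90. No acinar marker with a value was at 0 in both mice of any group. The 12 macrophage and monocyte markers summed to 493 to 763 TPM, 2851 to 3296 TPM and 681 to 829 TPM in the same order. Of these, 11 of 12 were raised at least 2-fold in AP mice, against 18.2% of all tested genes. In pretreated AP against AP mice 6 of 12 were lowered (0.404% of all tested genes at 2-fold). Lyz2 made up 58.2% to 66.3% of these sums in saline and AP mice and 17.5% to 24.5% in pretreated AP mice. Without Lyz2 the other 11 genes summed to 186 to 319 TPM, 960 to 1178 TPM and 562 to 626 TPM in that order. The 10 duct markers summed to 447 to 534 TPM in saline mice and 2345 to 2645 TPM in the other groups. At 2-fold 5 of 10 were raised in AP mice, against 18.2% of all tested genes. The 8 neutrophil markers with values, of 10 listed, summed to 5.15 to 16.9 TPM in saline mice. Their sums were 59.9 to 69.6 TPM with AP and 21.96 to 44.3 TPM with AP after polyI:C. At 2-fold 2 of the 5 that could be tested were raised in AP mice, against 18.2% of all tested genes. Without Retnlg, the most abundant of them, the other 7 summed to 2.38 to 14.6 TPM, 31.9 to 34.2 TPM and 20.5 to 36.7 TPM in that order. Elane was at 0 in the saline and AP mice and Camp in the saline mice. Of the 8 stellate cell and fibroblast markers, 4 were raised at least 2-fold in AP mice (18.2% of all tested genes), with a median log2 fold change of 1.24. In pretreated AP against saline mice 3 were raised (16.9% of all tested genes). Their sum without Dcn, the most abundant of them, was 96.5 to 218 TPM, 518 to 599 TPM and 362 to 375 TPM in the same order of groups. The 10 lymphocyte markers summed to 5.96 to 29.3 TPM, the 8 endothelial markers to 66.5 to 104 TPM and the 10 islet markers to 1312 to 2345 TPM over all 6 mice. In whole pancreas, fewer cells of a type and less RNA per cell cannot be told apart. The part of these shifts in the proteasome values was not tested.

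The first comparison, AP against saline mice, addressed what cerulein changes in the pancreas. Genes of the core, the cap and the activators rose together. Of the 42 tested genes, 33 were raised at least 2-fold with an adjusted p of at most 0.05 (limma, Benjamini-Hochberg adjustment over all tested genes) and 0 were lowered, against 18.2% of all tested genes raised and 4.03% lowered. At any fold 37 were raised, against 33.0% of all tested genes, and 0 lowered, against 7.39%. The median log2 fold change was 1.29, against 0.45 over all tested genes, and 37 of 42 lay above that overall median. In 41 of 42 genes both AP mice were above both saline mice, as was the case for 52.6% of all tested genes, while 16.4% of all tested genes had both AP mice below. Psma8 was the exception, with overlapping values. With 2 mice a group the smallest two-sided p of an exact permutation test is 0.333, so single genes were judged by the fit across all genes.

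Together the 43 genes made up 0.323% and 0.392% of the TPM total of the listed genes in the 2 saline mice. AP mice had shares of 0.771% and 0.888%, and pretreated AP mice of 1.00% and 0.938%. The saline mice therefore did not overlap with either cerulein group. Many of the rises lay near the 2-fold limit. After median-of-ratios scaling 13 of 42 genes were raised at least 2-fold (9.0% of all tested genes) and 33 at any fold (16.7%), Psme4 was lowered at any fold (15.6%), and the median log2 fold change was 0.84. The direction of Psma8, Psmd6, Psme4 and Psmf1 turned negative under this scaling. Voom, a count-based fit on the estimated reads, raised 25 of 42 at 2-fold (10.6%).

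**Figure D1:**
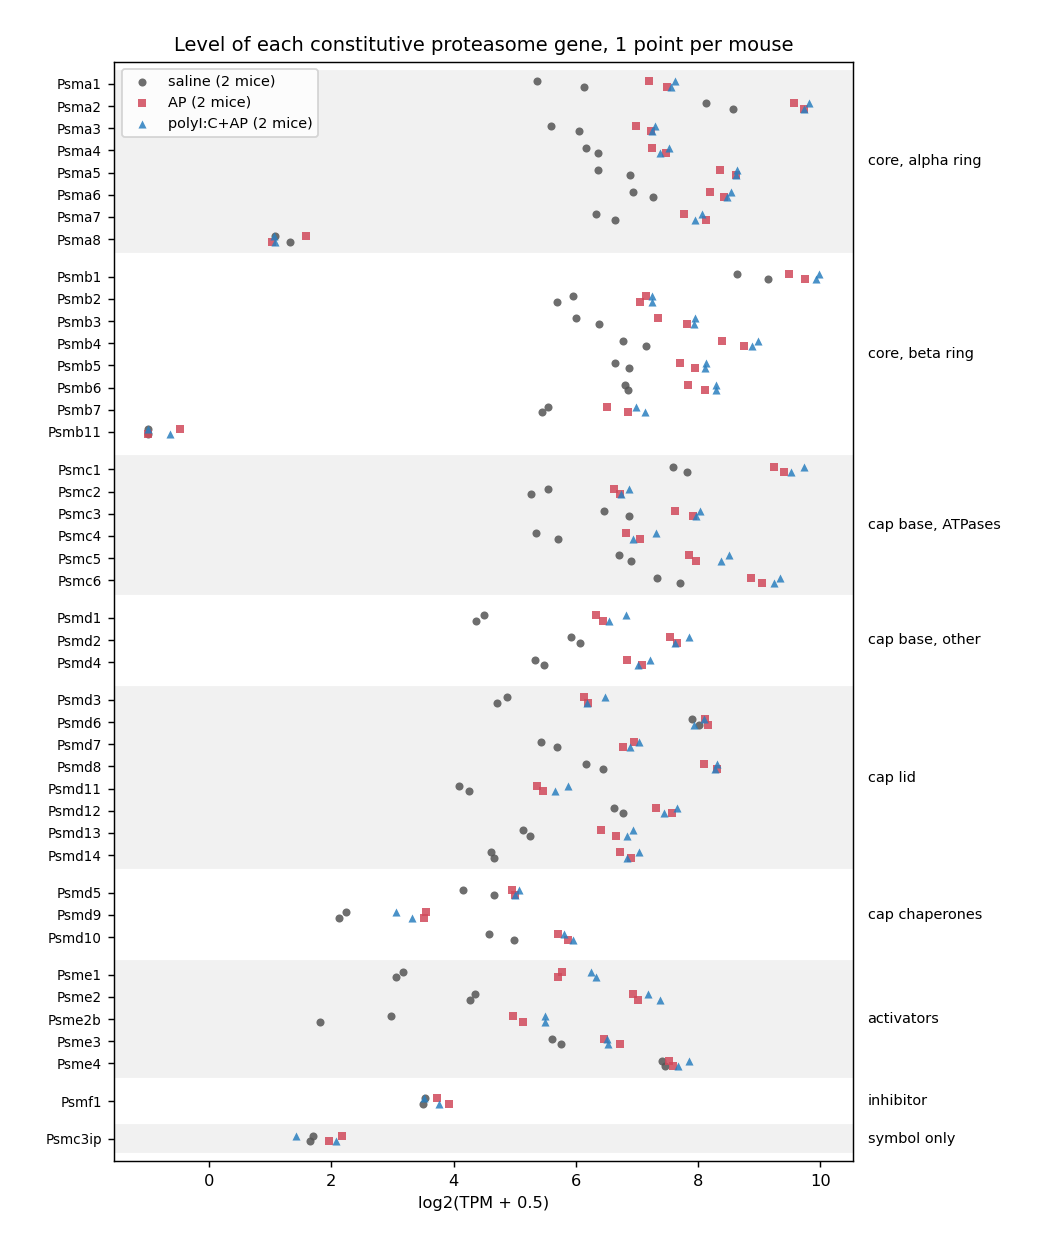
Level of each of the 43 genes on the log2(TPM + 0.5) scale, 1 point per mouse, ordered by structural group. The 2 saline mice (grey) lie to the left of both cerulein groups for most genes, while Psma8, Psmb11, Psmd6, Psme4, Psmf1 and Psmc3ip stay close together.

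The alpha ring of the core showed 7 of 8 genes raised, with log2 fold changes from 1.09 to 1.87 in these 7, and 3 of 8 after median-of-ratios scaling. Psma5 measured 81.4 and 117 TPM in saline mice, 327 and 393 TPM with AP and 395 and 394 TPM with AP after polyI:C. The cerulein groups were well above saline, and the 2 AP mice did not overlap with the saline mice. The log2 fold change was 1.87 ± 0.18 (SE, adjusted p = 4.8e-04, limma). In saline mice Psma1 was at 40.7 and 69.5 TPM, against 146 and 180.2 TPM in AP mice and 196 and 189 TPM after polyI:C pretreatment. Psma1 had the widest log2 difference between the 2 saline mice among the tested alpha genes, 0.76. It rose by 1.60 ± 0.24 log2 (SE, adjusted p = 0.0025, limma) in AP mice, and without AP replicate 2 the adjusted p was 0.051. For Psma8 the values were 1.62 and 1.99 TPM (saline), 2.49 and 1.53 TPM (AP) and 1.58 and 1.61 TPM (pretreated AP). The testis subunit Psma8 thus stayed at the edge of detection in every mouse, from an estimated 6 reads in each saline mouse, with a log2 fold change of 0.10 ± 0.48 (SE, adjusted p = 0.9, limma).

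The beta ring had 6 of its 7 tested genes raised, and 1 of 7 after scaling. Psmb4 measured 109 and 141 TPM in saline mice, 336 and 429.5 TPM with AP and 503 and 473 TPM with AP after polyI:C. Psmb4, a structural subunit without a catalytic site, showed the largest rise of the ring at 1.62 ± 0.16 log2 (SE, adjusted p = 5.6e-04, limma). In saline mice Psmb1 was at 398 and 567 TPM, against 715 and 860.2 TPM in AP mice and 1011 and 970.1 TPM after polyI:C pretreatment. Psmb1 was the highest of the core genes in saline mice, and its rise of 0.72 ± 0.18 log2 (SE, adjusted p = 0.018, limma) passed the test but not the 2-fold limit. For Psmb2 the values were 61.2 and 51.2 TPM (saline), 141 and 132 TPM (AP) and 151 and 150.5 TPM (pretreated AP). Psmb2, another structural subunit, rose by 1.28 ± 0.13 log2 (SE, adjusted p = 5.7e-04, limma).

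The catalytic subunits of the constitutive core are Psmb6, with caspase-like activity, Psmb7, with trypsin-like activity, and Psmb5, with chymotrypsin-like activity. In saline mice Psmb6 was at 112 and 115 TPM, against 229 and 277 TPM in AP mice and 315 and 312 TPM after polyI:C pretreatment. Psmb7 measured 46.1 and 43.3 TPM in saline mice, 90.9 and 115 TPM with AP and 127 and 139 TPM with AP after polyI:C. For Psmb5 the values were 99.1 and 116 TPM (saline), 208 and 246 TPM (AP) and 279 and 277 TPM (pretreated AP). In each of the 3 both AP mice were above both saline mice, as in 52.6% of all tested genes. The log2 fold changes in AP against saline mice were close to each other, at 1.15 ± 0.11 (SE, adjusted p = 5.1e-04, limma) for Psmb6, 1.18 ± 0.13 (SE, adjusted p = 8.4e-04, limma) for Psmb7 and 1.08 ± 0.13 (SE, adjusted p = 0.0012, limma) for Psmb5. After median-of-ratios scaling they were 0.70, 0.74 and 0.63, with adjusted p of 0.0042, 0.0071 and 0.014 (limma), and so below 2-fold. With voom on estimated reads they were 0.91, 0.95 and 0.84, again below 2-fold, and Psmb5 also fell below it without saline replicate 1 or AP replicate 2, at 0.96 in each case. Of the Psmb5 exon sequence, 22.2% of the stretches of 100 bases also occur in other genes, foremost Gm3375 and Mir686. Its level is therefore less certain than that of the other 2.

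The inducible counterparts behaved unequally. Psmb9 measured 1.58 and 1.03 TPM in saline mice, 7.33 and 13 TPM with AP and 15.1 and 19.9 TPM with AP after polyI:C. In saline mice Psmb8 was at 5.88 and 2.76 TPM, against 16.9 and 26.7 TPM in AP mice and 38.3 and 42.8 TPM after polyI:C pretreatment. Both were low in saline mice, from an estimated 8 and 4 reads for Psmb9 and 29 and 11 for Psmb8, and both rose in AP mice, by 2.53 ± 0.33 log2 (SE, adjusted p = 0.0013, limma) for Psmb9 and 2.25 ± 0.35 log2 (SE, adjusted p = 0.0027, limma) for Psmb8. For Psmb10 the values were 161 and 153 TPM (saline), 119 and 114 TPM (AP) and 128 and 136 TPM (pretreated AP). Psmb10 went the other way, with a log2 fold change of -0.43 ± 0.10 (SE, adjusted p = 0.014, limma) that passed the test at any fold. Under median-of-ratios scaling Psmb10 had -0.88 (adjusted p = 0.0013, limma), Psmb9 2.16 and Psmb8 1.84 on the log2 scale. The ratio of Psmb8 to Psmb5 was 0.0416 ± 0.025 (SD, n = 2) in saline mice, 0.0948 ± 0.019 in AP mice and 0.146 ± 0.012 in pretreated AP mice. That of Psmb9 to Psmb6 was 0.0116 ± 0.0036, 0.0395 ± 0.011 and 0.0559 ± 0.011 in the same order. That of Psmb10 to Psmb7 fell from 3.52 ± 0.031 in saline mice to 1.15 ± 0.22 in AP mice and 0.996 ± 0.024 in pretreated AP mice. In TPM, Psmb8 and Psmb9 thus stayed far below their constitutive counterparts in every mouse. The size of each ratio depends on the gene lengths used for TPM, which are not given in the sources used here. For each of the 3 ratios both AP mice lay on the same side of both saline mice.

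**Figure D2:**
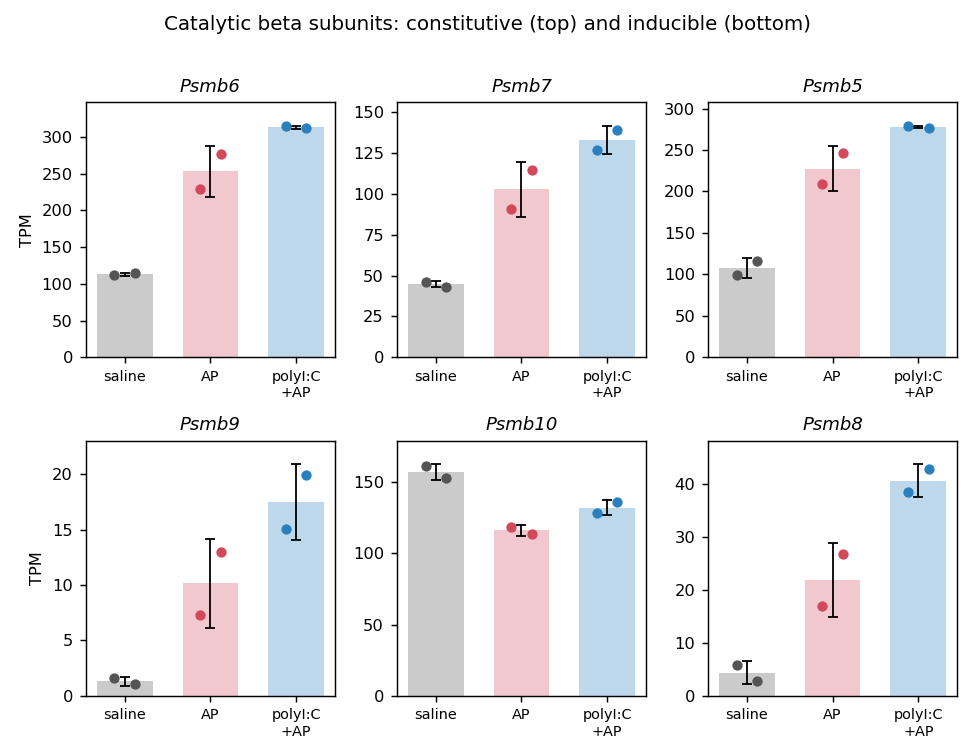
TPM of the constitutive catalytic subunits Psmb6, Psmb7 and Psmb5 (top) and of their inducible counterparts Psmb9, Psmb10 and Psmb8 (bottom), with bars for the mean, error bars for the SD and points for the 2 mice of each group. The top row and Psmb8 and Psmb9 are higher in both cerulein groups than in saline mice, and Psmb10 is lower.

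All 6 ATPases of the cap base, which thread the unfolded substrate into the core, were raised in AP mice, with log2 fold changes from 1.11 to 1.62. Psmc1 measured 192 and 226 TPM in saline mice, 607 and 675 TPM with AP and 851 and 737 TPM with AP after polyI:C. Psmc1 was the highest gene of the base in every group and had the largest change of the ATPases, 1.62 ± 0.12 log2 (SE, adjusted p = 2.0e-04, limma). In saline mice Psmc3 was at 87.8 and 116 TPM, against 197 and 242 TPM in AP mice and 261 and 248 TPM after polyI:C pretreatment. The smallest was that of Psmc3, 1.11 ± 0.16 log2 (SE, adjusted p = 0.0022, limma), which fell under 2-fold without saline replicate 1 or AP replicate 2, at 0.91 and 0.96. After scaling 6 of the 6 passed at any fold and 1, Psmc1, at 2-fold.

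The base also holds scaffold and ubiquitin receptor subunits. For Psmd1 the values were 22 and 20.2 TPM (saline), 79.6 and 86.5 TPM (AP) and 113 and 92.8 TPM (pretreated AP). Psmd1, one of the large scaffolds, rose by 1.95 ± 0.12 log2 (SE, adjusted p = 1.1e-04, limma). Psmd2 measured 60.0 and 66.8 TPM in saline mice, 186 and 201 TPM with AP and 230.1 and 197 TPM with AP after polyI:C. Psmd2, the other scaffold, rose by 1.60 ± 0.12 log2 (SE, adjusted p = 1.7e-04, limma). In saline mice Psmd4 was at 39.8 and 44 TPM, against 114 and 135 TPM in AP mice and 148 and 129 TPM after polyI:C pretreatment. Psmd4, a ubiquitin receptor, had a change of 1.56 ± 0.13 log2 (SE, adjusted p = 2.9e-04, limma). These 3 genes remained raised at least 2-fold after scaling, at 1.51, 1.15 and 1.11. The promoter of Psmd4 is among those shown above for the interferon element.

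In the lid, 6 of 8 genes were raised at least 2-fold and 1 more, Psmd12, at any fold. After scaling 2 of 8 were raised at 2-fold and 6 at any fold. Psmd14 measured 23.9 and 24.9 TPM in saline mice, 105 and 119 TPM with AP and 131 and 114 TPM with AP after polyI:C. Psmd14 (chromosome 2, 61711694 to 61800376, GRCm38) encodes the metalloprotease that cuts the ubiquitin chain from the substrate, and it had the largest change of the core and cap genes, 2.17 ± 0.12 log2 (SE, adjusted p = 7.4e-05, limma). In saline mice Psmd8 was at 71.4 and 86.4 TPM, against 274 and 318 TPM in AP mice and 316 and 309.6 TPM after polyI:C pretreatment. Psmd8 rose by 1.90 ± 0.13 log2 (SE, adjusted p = 1.3e-04, limma). For Psmd11 the values were 16.5 and 18.6 TPM (saline), 40.8 and 43.7 TPM (AP) and 58.3 and 50.2 TPM (pretreated AP). Psmd11 was the lowest of the lid genes in each group and rose by 1.25 ± 0.12 log2 (SE, adjusted p = 4.9e-04, limma). Psmd6 measured 238 and 258 TPM in saline mice, 277 and 284 TPM with AP and 274 and 243 TPM with AP after polyI:C. Psmd6 was the highest lid gene in saline mice and was nearly level across the groups. Its log2 fold change was 0.18 ± 0.10 (SE, adjusted p = 0.2, limma), with a 95% interval from -0.06 to 0.42, and after scaling it was -0.27 (adjusted p = 0.072, limma).

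The chaperones that assemble the cap base were among the lower transcripts. In saline mice Psmd9 was at 4.24 and 3.89 TPM, against 11.2 and 11 TPM in AP mice and 7.86 and 9.45 TPM after polyI:C pretreatment. For Psmd10 the values were 23.4 and 31.4 TPM (saline), 51.8 and 58.2 TPM (AP) and 55.6 and 61.1 TPM (pretreated AP). Psmd5 measured 17.4 and 24.8 TPM in saline mice, 30.5 and 31.6 TPM with AP and 32.9 and 31.6 TPM with AP after polyI:C. In all 3 both AP mice were above both saline mice, as in 52.6% of all tested genes. Psmd9 rose by 1.34 ± 0.17 log2 (SE, adjusted p = 0.0011, limma), and Psmd10, which is also known as gankyrin, by 1.00 ± 0.19 log2 (SE, adjusted p = 0.0059, limma). After scaling 0 of the 3 were raised at 2-fold and 1, Psmd9, at any fold. Psmd10 sat on the 2-fold limit and fell short of it with a pseudocount of 1, with voom on estimated reads and without saline replicate 1 or AP replicate 2. Psmd5 passed at any fold, at 0.57 ± 0.17 log2 (SE, adjusted p = 0.036, limma). An opposite-strand gene, Gm26745, covers 25.5% of the Psmd9 exon bases.

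The activator genes split into a group that rose strongly and a group that did not. Psme1 measured 8.53 and 7.83 TPM in saline mice, 54.1 and 51.5 TPM with AP and 75.8 and 80.2 TPM with AP after polyI:C. Psme1 (chromosome 14, 55578123 to 55581529, GRCm38) rose by 2.62 ± 0.13 log2 (SE, adjusted p = 5.0e-05, limma). In saline mice Psme2 was at 19.8 and 18.9 TPM, against 122 and 129 TPM in AP mice and 144 and 165 TPM after polyI:C pretreatment. Psme2, its neighbour on chromosome 14 (55587441 to 55591113) and partner in the same ring, rose by 2.67 ± 0.12 log2 (SE, adjusted p = 4.0e-05, limma). In both genes the AP mice lay far above the saline mice, with no overlap. For Psme2b the values were 7.36 and 3.02 TPM (saline), 30.8 and 34.5 TPM (AP) and 44.7 and 44.6 TPM (pretreated AP). Psme2b is a near copy of Psme2, with 52.0% of its stretches of 100 bases also in Psme2, it rests on an estimated 9 and 3 reads in the saline mice, and reads could be shared between the pair. Its log2 fold change was 2.65 ± 0.39 (SE, adjusted p = 0.0023, limma).

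Psme3 encodes the activator of the nucleus. In saline mice Psme3 was at 48.2 and 53.4 TPM, against 87.9 and 105 TPM in AP mice and 91 and 91.7 TPM after polyI:C pretreatment. It rose by 0.91 ± 0.12 log2 (SE, adjusted p = 0.0016, limma), which passed at any fold, and without AP replicate 1 it reached 1.04 and the 2-fold call. Psme4 measured 170.4 and 175 TPM in saline mice, 183 and 192 TPM with AP and 231 and 202 TPM with AP after polyI:C. Psme4 encodes an activator known from histone degradation in sperm and from DNA repair. It was the most abundant activator transcript in every mouse, and the AP and saline mice did not overlap, but its log2 fold change was only 0.12 ± 0.10 (SE, adjusted p = 0.38, limma). After scaling, Psme4 was 0.33 lower in AP mice on the log2 scale, as a log2 fold change of -0.33 with an adjusted p of 0.032 (limma), so its direction depends on the scaling. Psme1 and Psme2 stayed raised at 2.18 and 2.22 after scaling.

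**Figure D3:**
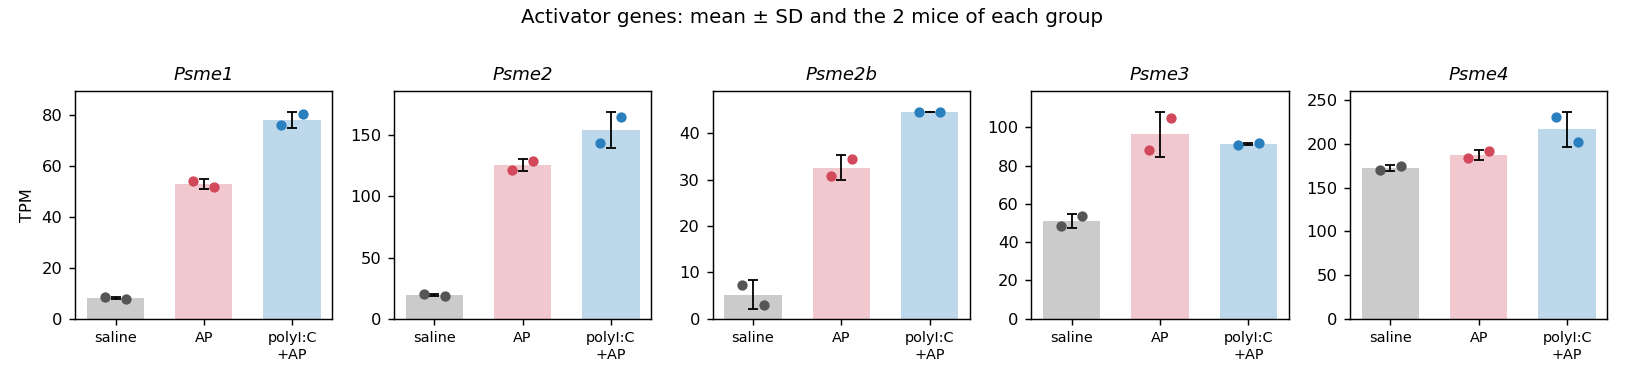
TPM of the 5 activator genes, with bars for the mean, error bars for the SD and points for the 2 mice of each group. Psme1, Psme2 and Psme2b rise from at most 19.8 TPM in saline mice to at least 30.8 TPM in AP mice, Psme3 rises less, and Psme4 starts high and changes little.

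Psmf1 and Psmc3ip did not pass the test. For Psmf1 the values were 11 and 10.9 TPM (saline), 12.8 and 14.7 TPM (AP) and 11 and 13.1 TPM (pretreated AP). Its log2 fold change was 0.31 ± 0.16 (SE, adjusted p = 0.15, limma), and -0.12 after scaling. In saline mice Psmc3ip was at 2.73 and 2.64 TPM, against 4.0 and 3.37 TPM in AP mice and 2.17 and 3.72 TPM after polyI:C pretreatment. The change of this meiotic gene was 0.39 ± 0.46 log2 (SE, adjusted p = 0.54, limma).

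When the levels of a structural group were averaged in each mouse on the log2(TPM + 0.5) scale, the 15 core genes with values past the filter gave 6.30 ± 0.21 (SD, n = 2) in saline mice and 7.52 ± 0.15 in AP mice, a difference of 1.22. The 9 base genes went from 6.16 ± 0.12 to 7.61 ± 0.12, a difference of 1.45. The 8 lid genes went from 5.66 ± 0.087 to 6.95 ± 0.079, a difference of 1.28, which was 1.44 without Psmd6. The 5 activator genes went from 4.59 ± 0.16 to 6.38 ± 0.069, a difference of 1.79, which was 1.58 without Psme2b and 2.64 for Psme1 and Psme2 alone. Every one of these differences exceeded the spread between the mice of a group. After scaling they were 0.78, 1.00, 0.84 and 1.35. Whether the groups differ from each other in their change was not tested.

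**Figure D4:**
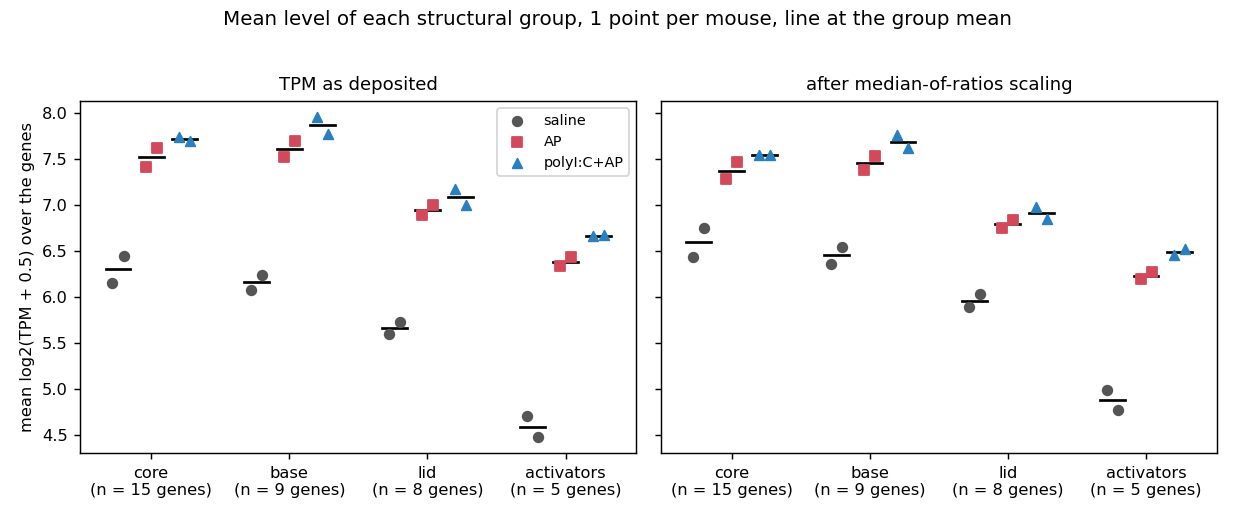
Mean log2(TPM + 0.5) of the core, base, lid and activator genes in each mouse, with the TPM as deposited (left) and after median-of-ratios scaling (right), and a line at each group mean. The saline mice lie below both cerulein groups in all 4 sets of genes on both panels, and the gap narrows after scaling.

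The second comparison, pretreated AP against AP mice, addressed what the pretreatment changes during cerulein pancreatitis. No proteasome gene passed the test in this comparison. Of 42 tested genes, 0 were raised and 0 lowered at 2-fold or at any fold with limma, against 0.440% of all tested genes raised and 0.404% lowered at 2-fold, and 0.714% raised and 0.517% lowered at any fold. At an unadjusted p under 0.05 there were 9 of 42 (21.4%), against 13.9% of all tested genes. Voom on estimated reads raised 2 at any fold (1.64% of all tested genes), Psme1 and Psmc5, and 0 at 2-fold (0.660%). The median log2 fold change was 0.16, against 0.04 over all tested genes, and 36 of 42 genes lay above that overall median. In 23 genes both pretreated mice were above both AP mice, and in 2, Psmd6 and Psmd9, they were below, against 27.7% and 22.1% of all tested genes. The 95% interval of the log2 fold change lay within a 2-fold change either way for 39 of 42 genes, the exceptions being the low genes Psma8, Psme2b and Psmc3ip. How many of all tested genes had such an interval was not counted.

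The values nearest to a call were those of Psme1 and Psmc5. For Psme1, whose levels are given above, the pretreated mice lay above the AP mice, with a log2 fold change of 0.56 ± 0.13 (SE, adjusted p = 0.1, limma) and a 95% interval from 0.26 to 0.86. Psmc5 measured 103 and 119 TPM in saline mice, 232 and 249 TPM with AP and 364 and 332 TPM with AP after polyI:C. The pretreated mice were again above both AP mice, with a change of 0.53 ± 0.11 log2 (SE, adjusted p = 0.092, limma) and an interval from 0.26 to 0.80. With voom the adjusted p was 0.049 for Psme1 and 0.034 for Psmc5. Psme2 had 0.29 ± 0.12 log2 (SE, adjusted p = 0.34, limma), Psme2b 0.45 ± 0.39 log2 (SE, adjusted p = 0.69, limma), Psme3 -0.07 ± 0.12 log2 (SE, adjusted p = 0.86, limma) and Psme4 0.21 ± 0.10 log2 (SE, adjusted p = 0.42, limma).

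In the core, the change ranged from -0.23 for Psma8 to 0.24 for Psma1 in the alpha ring and from 0.14 for Psmb2 to 0.38 for Psmb7 in the beta ring, all as log2 fold changes. The catalytic subunits had log2 values of 0.31 for Psmb6, 0.38 for Psmb7 and 0.29 for Psmb5, with adjusted p of 0.29, 0.28 and 0.41 (limma). Both pretreated mice were above both AP mice in each, as in 27.7% of all tested genes. The beta genes had a median of 0.34 and the alpha genes 0.13. In the base, the smallest changes were those of Psmd2 and Psmc2, at log2 fold changes of 0.14 and 0.14. In the lid, the range was from -0.12 for Psmd6 to 0.36 for Psmd11. The lowest value of all was that of the chaperone Psmd9, -0.34 ± 0.17 log2 (SE, adjusted p = 0.43, limma), where both pretreated mice were below both AP mice. The other chaperones had 0.09 for Psmd10 and 0.05 for Psmd5, while Psmf1 had -0.19 and Psmc3ip -0.31. Scaling moved these values little, with a median of 0.14 and again 0 calls, against 0.393% of all tested genes raised at 2-fold, and 0.607% raised and 0.565% lowered at any fold.

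The macrophage and monocyte markers, of which 6 of 12 were lowered in the same comparison (0.404% of all tested genes at 2-fold), had a median log2 fold change of -1.89. In the inducible subunits, Psmb8 had 0.91 ± 0.35 log2 (SE, adjusted p = 0.32, limma), Psmb9 0.79 ± 0.33 log2 (SE, adjusted p = 0.35, limma) and Psmb10 0.18 ± 0.10 log2 (SE, adjusted p = 0.49, limma), none of which passed.

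The third comparison set pretreated AP against saline mice, which share the saline mice with the first comparison. Of 42 tested genes, 34 were raised at least 2-fold and 0 lowered (limma), against 16.9% of all tested genes raised and 2.97% lowered. At any fold 38 were raised, against 33.4% of all tested genes, and 0 lowered, against 5.80%. The median log2 fold change was 1.49, against 0.48 over all tested genes. Both pretreated mice were above both saline mice in 38 genes and below in 1, Psma8, against 54.4% and 14.0% of all tested genes. After scaling 21 were raised at 2-fold (7.62% of all tested genes), 31 at any fold (14.2%), and Psmd6 was lowered at any fold (12.9%). Voom on estimated reads raised 30 at 2-fold (8.94%).

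Side by side, the log2 fold changes against saline in AP mice and in pretreated AP mice were 2.62 and 3.18 for Psme1, 2.67 and 2.96 for Psme2, 0.91 and 0.84 for Psme3 and 0.12 and 0.32 for Psme4. For the catalytic subunits they were 1.15 and 1.47 for Psmb6, 1.18 and 1.56 for Psmb7 and 1.08 and 1.37 for Psmb5. Psmb1, which was under 2-fold in AP mice, reached 1.06 ± 0.18 log2 (SE, adjusted p = 0.0042, limma) in the pretreated mice, but its adjusted p was 0.072 without polyI:C+AP replicate 1, and its change was 0.80 without saline replicate 1. Psme4 passed at any fold at 0.32 ± 0.10 log2 (SE, adjusted p = 0.036, limma), and turned to -0.15 after scaling. The largest log2 changes of the cap were again 2.30 for Psmd14 and 2.25 for Psmd1, and that of the alpha ring was 2.01 for Psma5. On the same scale Psmd6 had 0.06, Psma8 -0.13, Psmf1 0.12 and Psmc3ip 0.08, all short of the test. The extremes of the remaining groups were, on the log2 scale, 1.98 for Psmb4, 1.92 for Psmc1, 1.33 for Psmc3, 1.71 for Psmd4, 1.09 for Psmd10, 1.00 for Psmd9 and 0.62 for Psmd5. Psmd9 sat on the 2-fold limit and fell short of it without saline replicate 2 or polyI:C+AP replicate 2, with a pseudocount of 1, at 0.93, with voom, at 0.80, and after scaling, at 0.56. Psmd10 fell short with voom, at 0.84, without saline replicate 1, at 0.88, and after scaling, at 0.62.

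**Figure D5:**
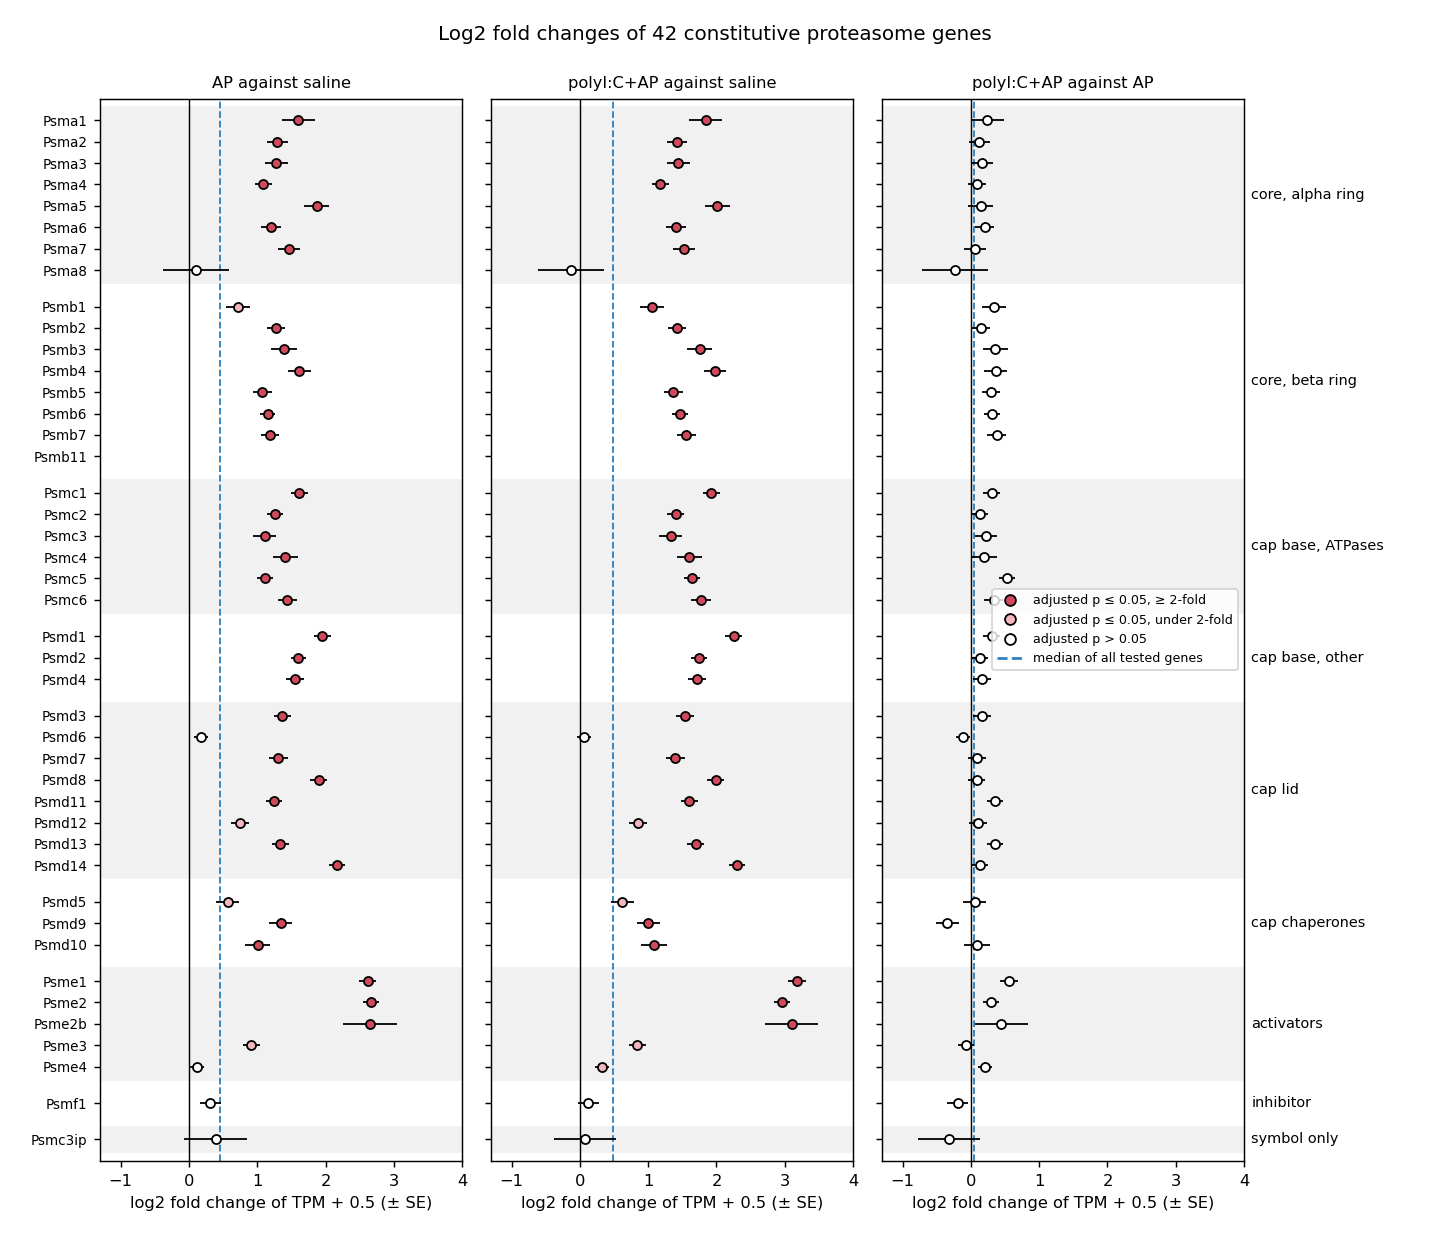
Log2 fold change of TPM + 0.5 with its SE for the 42 tested genes in AP against saline (left), pretreated AP against saline (middle) and pretreated AP against AP mice (right). Filled points passed the test, and the dashed line is the median over all tested genes, at 0.45, 0.48 and 0.04. Both left panels lie to the right of that line for 37 of 42 genes, and the right panel holds no filled point.

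TPM are scaled by gene length, but the lengths used are not given in the sources used here. The order of different genes by TPM, here and above, therefore depends on those lengths and is uncertain. In saline mice the mean levels of the core genes past the filter ran from 1.80 TPM for Psma8 to 483 TPM for Psmb1, with a median of 89.6 TPM. Those of the base ran from 21.1 TPM for Psmd1 to 209.0 TPM for Psmc1, and those of the lid from 17.5 TPM for Psmd11 to 248 TPM for Psmd6. In AP mice the medians were 227 TPM in the core, 194 TPM in the base and 114 TPM in the lid, and Psma2, at 804 TPM, led the core. Psmd6 gave way to Psmd8, at 296 TPM, as the highest lid gene. In the pretreated AP mice Psmb1 led the core at 990.3 TPM and Psmd8 the lid at 313 TPM. The assembled core holds its ring subunits in equal numbers, and the TPM of the ring genes were not equal. How much of that inequality comes from the gene lengths used was not tested.

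The 2 mice of a group also differed in a common direction. In the saline group 31 of the tested genes were higher in mouse 2 than in mouse 1, with a median difference of 0.18 on the log2 scale, and in the AP group 36 were higher in mouse 2, with a median difference of 0.18. In the pretreated AP group 9 were, with a median difference of -0.07. Over all tested genes the median differences were 0.0, 0.01 and -0.04 on the log2 scale in the same order. How many of all tested genes were higher in mouse 2 was not counted. The median size of the difference, whichever mouse was higher, was 0.23, 0.20 and 0.12 on the log2 scale, against 0.29, 0.19 and 0.21 over all tested genes.

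Other genes of the proteasome pathway were counted in the same fit. Of 36 other genes listed, Paaf1 had no value, and 11 of the other 35 passed as raised at 2-fold when AP was set against saline (18.2% of all tested genes) and 0 as lowered, with a median log2 fold change of 0.71. The 2-fold counts were 0 raised and 0 lowered in pretreated AP against AP mice (0.440% of all tested genes raised), with 6 genes (17.1%) at an unadjusted p under 0.05, and 13 raised and 0 lowered in pretreated AP against saline mice (16.9% of all tested genes raised). After scaling the raised counts were 6, 0 and 6, against 9.0%, 0.393% and 7.62% of all tested genes.

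Of the cap subunits with other names 3 of 4 were raised in AP mice. Adrm1 measured 11.3 and 11.4 TPM in saline mice, 32.4 and 35.6 TPM with AP and 37 and 30.8 TPM with AP after polyI:C. Adrm1, a ubiquitin receptor of the base, rose by 1.54 ± 0.14 log2 (SE, adjusted p = 3.6e-04, limma). Usp14, a deubiquitinase docked on the base, and Sem1, a small lid subunit, rose by 1.42 and 1.09 log2, and Uchl5, the other docked deubiquitinase, had 0.27 ± 0.13 log2 (SE, adjusted p = 0.15, limma). Of 7 assembly genes of the core and of related factors, 2 were raised, Pomp and Psmg4. In saline mice Pomp was at 14.6 and 23.4 TPM, against 57.6 and 68.2 TPM in AP mice and 56.3 and 61.1 TPM after polyI:C pretreatment. Pomp, the maturation factor of new core particles, rose by 1.74 ± 0.22 log2 (SE, adjusted p = 0.0012, limma). Psmg4 rose by 1.39 ± 0.40 (SE, adjusted p = 0.033, limma), while Psmg1, Psmg2, Psmg3, Akirin2 and Ecpas had log2 fold changes of 0.27, 0.66, 0.78, 0.56 and -0.003. Under scaling Pomp had 1.29, Psmg4 0.94 and Ecpas -0.45 on the log2 scale. The adjusted p of these 3 were 0.0060, 0.13 and 0.0090 (limma).

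Of 4 genes of proteasome transcription, Nfe2l2, the master factor of the antioxidant response, was raised. For Nfe2l2 the values were 35.8 and 38.2 TPM (saline), 115 and 117 TPM (AP) and 159 and 165 TPM (pretreated AP). Its change was 1.64 ± 0.091 log2 (SE, adjusted p = 7.9e-05, limma). Nfe2l1 measured 35.2 and 39.7 TPM in saline mice, 77.3 and 62.2 TPM with AP and 68.3 and 64.6 TPM with AP after polyI:C. Nfe2l1, which restores proteasome genes when the proteasome is inhibited, passed at any fold at 0.88 ± 0.13 log2 (SE, adjusted p = 0.0025, limma), and its scaled value was 0.44 (adjusted p = 0.053, limma). Ddi2, the protease that activates the Nfe2l1 protein, had -0.49 ± 0.12 log2 (SE, adjusted p = 0.015, limma), and Ngly1, which removes its sugars, had -0.11 ± 0.11 log2 (SE, adjusted p = 0.46, limma). Under scaling Nfe2l2 had 1.19, Ddi2 -0.94 and Ngly1 -0.56 log2, with adjusted p of 3.2e-04, 0.0023 and 0.0080 (limma). The delivery and ubiquitin genes were raised in 3 of 17 cases, a share near the 18.2% of all tested genes. In saline mice Zfand2a was at 7.12 and 6.45 TPM, against 48.2 and 49.4 TPM in AP mice and 38.8 and 28.6 TPM after polyI:C pretreatment. Zfand2a, a proteasome adaptor of the arsenite stress response, rose by 2.76 ± 0.17 log2 (SE, adjusted p = 1.1e-04, limma). On the log2 scale the others raised were Zfand5, at 1.35, and Nploc4, at 1.09, while Vcp, the segregase that extracts ubiquitin-tagged proteins, reached 0.95 in AP mice and 1.32 in the pretreated AP mice. Scaled values in AP mice were 2.33 for Zfand2a, 0.90 for Zfand5 and 0.65 for Nploc4. Those of Vcp were 0.50 in AP mice and 0.84 in pretreated AP mice. The ubiquitin genes Ubb and Rps27a had log2 fold changes of 0.18 and -0.06. Their scaled values were -0.27 and -0.51, with adjusted p of 0.076 and 0.0072 (limma).

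Some proteasome transcripts share sequence or position with other genes, which could move their counts. Of the stretches of 100 bases, 23.7% in Psma5 also occur in other genes, foremost Gm8394 and Gm12989. In Psme2 18.4% occur in Psme2b, and in Psma3 13.4% occur in Gm13835. Opposite-strand neighbours cover 21.2% of the exon bases of Psmc3ip, 11.8% of Psmb7, 10.1% of Psmd13 and 8.25% of Psmc3, and how strand was used in the counting is not given in the sources used here. Psmd1 shares 4.14% of its exon bases with Gm21972 on the same strand.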

How the data were processed

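Pancreas RNA-sequencing of 6 mice was analysed, 2 in each of 3 groups taken from the labels. The authors deposited 1 table of TPM per mouse, with 22556 Ensembl identifiers. Per the labels and the study's methods, reads were trimmed with Trimmomatic, mapped to mm10 with STAR and counted with htseq-count. The step from counts to TPM and the gene lengths used are not given in the sources used here, and the labels name 2 library kits. GENCODE M21 (GRCm38) held 22490 of these identifiers, 17290 of them protein-coding.

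TPM were used as deposited. limma 3.58.1 (R 4.3.3) was run on log2(TPM + 0.5) for the 16814 genes whose mean over the mice was 1 TPM or more, with 1 coefficient per group over all 6 mice and a variance prior following log2(mean TPM × exon length + 1). The Benjamini-Hochberg adjustment covered all tested genes. Calls required an adjusted p no higher than 0.05 together with 2-fold change, and calls at any fold are given beside it. Every fold change is a difference of log2(TPM + 0.5), which understates those of low genes. Between 51.2% and 62.5% of low values were within 0.1 of a whole number of reads, so reads are estimates, used only for voom and as a guide to depth. Counts of every gene list were made with the same fit.

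The members and gene lists were chosen with earlier results of these data known. Genes were named by rule, as the largest and smallest change of each structural group in each comparison, Psmb5, Psmb6, Psmb7, the Psme genes and, outside the members, the inducible subunits, Pomp, Nfe2l1 and list genes past the threshold, with a few other list genes named for completeness. Some listed genes are not reported here by name. Scripts were tested on simulated reads. Alternatives were other pseudocounts (0.1 and 1), filters (none and 10 TPM), scaling, priors and tests, a replicate block, and leaving out each mouse.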

Additional observations from a re-analysis of the deposited data

How the results depend on the processing

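Scaling changed the counts of raised genes, here named AP/saline, pretreated/saline and pretreated/AP. With median-of-ratios scaling, an alternative listed with the design, they were 13, 21 and 0. Added after seeing the data, this scaling with the replicate block gave the same counts. This scaling without 1 mouse, also added then, gave AP/saline counts of 10 and 18 without saline mouse 1 or 2, 14 and 10 without AP mouse 1 or 2, and 12 and 13 without pretreated mouse 1 or 2. The pretreated/saline counts in that order were 20, 27, 21, 21, 16 and 19. The mean log2 differences of the core, base, lid and activator genes under scaling were 0.78, 1.00, 0.84 and 1.35 for AP/saline and 0.95, 1.23, 0.95 and 1.62 for pretreated/saline.

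With TPM as deposited, leaving out each mouse in turn gave 28 to 34 raised genes for AP/saline, 32 to 34 for pretreated/saline and 0 for pretreated/AP. The replicate number as a block gave 33, 34 and 0, and changed no call. Over all tested genes, mice with the same number did not deviate together (correlations of 0.0075, -0.0039 and 0.035). This gave no sign that the numbers pair the mice, but pairing without a broad shared effect would not show in it. Voom on estimated reads gave 25, 30 and 0 at 2-fold. Other pseudocounts, filters and priors changed the 2-fold call of 2 values, both with a pseudocount of 1.

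Sets trimmed after seeing the data gave 1.44 and 1.62 for the lid genes without Psmd6, 1.58 and 1.83 for the activators without Psme2b, and 2.64 and 3.07 for Psme1 and Psme2 alone, for AP/saline and pretreated/saline in turn. For Psme1 and Psme2 alone the difference between pretreated AP and AP mice was 0.43. No gene of the proteasome called at 2-fold turned its direction under the alternatives run. Of those called at any fold, Psme4 turned to -0.15 for pretreated/saline under scaling, with or without the block, and stayed negative under scaling without each mouse. Psmd5 turned to -0.14 for AP/saline and -0.11 for pretreated/saline under scaling without saline mouse 1. With 2 mice in each group, and with the fewest estimated reads in the saline mice, low genes such as Psma8, Psme2b and Psmc3ip are measured least precisely.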
